A study of Mus musculus with 4 samples.

Results

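Plasmacytoid dendritic cells were studied in the bone marrow of mice that carried a Tet2+/- blood graft and received vitamin B12, sodium butyrate, both or neither. They were taken as the single cells with at least 3 UMIs of Siglech, the sialic-acid-binding lectin that marks these cells in mice, and at least 2 UMIs of Irf8, a transcription factor of dendritic cells, with at most 1 UMI of the B cell gene Cd79a and with the neutrophil granule genes Camp and Ngp below 0.5% of UMIs. A UMI (unique molecular identifier) stands for 1 captured RNA molecule. The rule found 416 cells among the 31209 cells of 4 libraries that had 500 or more genes detected, 1000 or more UMIs and no more than 10% of UMIs from mitochondrial genes. The cells were thus chosen by their measured levels of Siglech, Irf8, Cd79a, Camp and Ngp, and these levels are given here as a description only.

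Lethally irradiated mice had been given equal parts of CD45.1+ wild-type and CD45.2+ Tet2+/- marrow, and Tet2 encodes an enzyme that oxidises methylated cytosine. Treatment began 1 month after transplantation and lasted 7 months. The B12+Butyrate mice received 0.29 µg of B12 by intraperitoneal injection 2 times a week and 100 mM sodium butyrate in the drinking water. The B12 mice received the same injections with 100 mM NaCl in the water. The Butyrate mice received PBS injections with 100 mM sodium butyrate in the water, and the Control mice received PBS injections with 100 mM NaCl in the water. All 4 groups share the irradiation, the mixed transplant and the Tet2+/- genotype of the cells analysed, so none holds Tet2+/+ cells. Frozen marrow of 3 mice per group was pooled, live CD45.2+ cells were sorted into Kit+ and Kit- fractions, and the fractions were mixed 50:50 before the library was made. Each group is thus 1 library. Differences between groups have no replicate check and no test, and the intervals given here (95%, exact Clopper-Pearson for shares and exact Poisson for levels) cover counting error only. A share of cells here is a share of that sorted mixture and not of whole marrow.

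Plasmacytoid dendritic cells are immune cells of the dendritic lineage that sense viral nucleic acids in endosomes through the receptors TLR7 and TLR9 and answer with type I interferon. The E protein TCF4 (E2-2) drives and maintains their fate, with IRF8, RUNX2, SPIB and BCL11A acting beside it, and they arise in marrow from proliferating progenitors of both myeloid and lymphoid origin. In their resting state they present antigen weakly through MHC class II, which rises when they mature.

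The label was checked against marker genes that the rule did not use. Bst2, the tetherin glycoprotein used as the surface marker PDCA-1, averaged 1945 CPM (UMIs of a gene scaled to the same total of counts in every library) over the 4 libraries' gated cells, and 59.7 CPM in all other cells. Tcf4 averaged 4027 CPM in the gated cells and 106 CPM in the others. Both genes had at least 1 UMI in every one of the 416 cells. The 20 genes with the largest ratio to all other cells, among genes at 100 CPM or more, included Cox6a2, a muscle-type subunit of cytochrome c oxidase (737 against 3.28 CPM), Grm8, a metabotropic glutamate receptor (470.0 against 0.603 CPM), Runx2 (3389 against 126 CPM), Ly6d, a surface protein shared with early lymphoid cells (1789.8 against 79.4 CPM), Cd300c (213 against 2.81 CPM), the membrane-trafficking adaptor Pacsin1 (209 against 3.03 CPM), the gut-homing chemokine receptor Ccr9 (177 against 2.47 CPM) and Mctp2 (1041 against 55.6 CPM). The other leading genes were Ccnd1, Slc41a2, Zdhhc14, Carmil1, Tex2, Atp1b1, Pdzd4, Cd7, Srgap3 and Ppm1e, beside Tcf4 and Bst2.

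TCF4 binds E-boxes, and the strong form CAGGTG was looked for in the 250 bases before the start site of each gene, because TCF4 drives this fate. Promoter sequences are those of RefSeq on GRCm38.p6, an older build than the GRCm39 of the counts, and 13 of the 20 leading genes had an entry. A gene with several listed start sites counted if any of them matched, and Grm8 also had start sites with neither motif below. CAGGTG on either strand stood in 5 of these 13 genes (38.5%: Bst2, Ccr9, Cd300c, Grm8 and Mctp2), beside 5252 of all 27025 genes with a promoter (19.4%). Counted per promoter, it stood in 5 of 15 (33.3%), beside 5657 of all 32851 (17.2%). An interferon-response-type motif, GAAA followed after any 2 bases by a further GAAA, on either strand, stood in 3 of the 13 (23.1%: Bst2, Cd300c and Grm8), beside 936 of all 27025 genes (3.46%). Bst2, which holds both, Ccr9, Mctp2 and the gate gene Siglech are printed below 5′ to 3′ on the gene's strand, ending at the base before the start site, with the E-box in capitals (CACCTG is the same motif on the other strand). A match describes the letters only and shows no binding.
Siglech, chr7:55767934-55768183, plus strand: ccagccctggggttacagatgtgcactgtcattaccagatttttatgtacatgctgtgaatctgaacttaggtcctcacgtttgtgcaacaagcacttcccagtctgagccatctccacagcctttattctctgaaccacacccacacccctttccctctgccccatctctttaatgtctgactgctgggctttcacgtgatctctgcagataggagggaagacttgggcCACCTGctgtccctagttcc
Bst2, chr8:71537473-71537722, minus strand: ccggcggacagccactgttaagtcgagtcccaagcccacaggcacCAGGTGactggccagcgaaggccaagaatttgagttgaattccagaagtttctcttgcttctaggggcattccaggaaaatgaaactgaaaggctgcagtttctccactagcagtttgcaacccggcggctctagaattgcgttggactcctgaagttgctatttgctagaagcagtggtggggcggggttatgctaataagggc
Ccr9, chr9:123766961-123767210, plus strand: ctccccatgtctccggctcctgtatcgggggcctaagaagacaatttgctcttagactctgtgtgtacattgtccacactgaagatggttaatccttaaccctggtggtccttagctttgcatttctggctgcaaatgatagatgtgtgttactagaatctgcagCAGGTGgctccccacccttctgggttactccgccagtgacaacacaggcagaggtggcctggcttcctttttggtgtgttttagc
Mctp2, chr7:72306596-72306845, minus strand: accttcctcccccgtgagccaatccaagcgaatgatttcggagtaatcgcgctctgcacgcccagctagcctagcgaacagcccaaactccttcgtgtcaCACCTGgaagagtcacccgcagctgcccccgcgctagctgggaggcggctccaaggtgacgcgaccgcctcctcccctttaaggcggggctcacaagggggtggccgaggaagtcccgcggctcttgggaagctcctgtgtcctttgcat
The E-box began 20 bases before the start site in Siglech, 205 in Bst2, 85 in Ccr9 and 150 in Mctp2. Ccr9 was higher in the non-cycling cells described further on.

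The gated cells were deeply sequenced. Their median UMI count per cell was 12604 in B12+Butyrate, 14022 in B12, 14315 in Butyrate and 11373 in Control, and their UMIs summed to 1236877, 930299, 2193783 and 2040703 in the same order. The levels of B12 thus rest on the fewest molecules. No gated barcode occurred in more than 1 library, whereas 93 of the 31116 distinct barcodes past the limits did. A simple doublet caller marked 4, 1, 4 and 7 of the gated cells, and these cells were kept. Of 451 cells with at least 3 Siglech UMIs, the Irf8 limit removed 1, the Cd79a limit 5 and the Camp and Ngp limit 29 (6 in B12+Butyrate, 7 in B12, 1 in Butyrate and 15 in Control). The Siglech threshold cut a continuous range. The 43 gated cells with exactly 3 UMIs had 1269 CPM of Bst2, 2106 of Tcf4, 238 of Cox6a2 and 15.1 of Ccr9, and the 55 cells just outside, with 2 UMIs, had 910.2, 1526, 129 and 11.4 CPM. Among the T cells, which should lack Siglech, a Siglech UMI was seen in 2 of 134 cells in B12+Butyrate, 1 of 101 in B12, 0 of 232 in Butyrate and 0 of 289 in Control, at a median depth in Control of 5205 UMIs per T cell and 11373 per gated cell.

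The plasmacytoid share was lower in each library from B12-treated mice than in its partner without B12. In B12+Butyrate 75 of 7616 cells passed the rule, or 0.985% (interval 0.775% to 1.23%). In B12 there were 56 of 8048, or 0.696% (0.526% to 0.903%). Butyrate held 140 of 6793, or 2.06% (1.74% to 2.43%), and Control 145 of 8752, or 1.66% (1.40% to 1.95%). The intervals of both B12-treated libraries lay below those of both libraries without B12. The ratio was 0.420 for B12 over Control (0.309 to 0.571) and 0.478 for B12+Butyrate over Butyrate (0.362 to 0.631), a pair of comparisons that share no library. Butyrate alone gave a ratio of 1.24 over Control (0.988 to 1.57), whose interval includes 1, and B12+Butyrate over B12 gave 1.42 (1.003 to 1.998). These ratio intervals are normal approximations on the log scale.

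Neutrophils made up a larger part of the B12-treated libraries. Cells with Camp and Ngp at 0.5% of UMIs or more made up 52.2% of B12+Butyrate, 52.7% of B12, 40.0% of Butyrate and 40.7% of Control. Over the remaining cells the plasmacytoid share was 2.06% in B12+Butyrate (1.63% to 2.58%), 1.47% in B12 (1.11% to 1.91%), 3.44% in Butyrate (2.90% to 4.04%) and 2.79% in Control (2.36% to 3.28%). The ratio on this denominator was 0.526 for B12 over Control (0.388 to 0.714) and 0.600 for B12+Butyrate over Butyrate (0.455 to 0.791), nearer to 1 than over all cells. Butyrate over Control gave 1.23 (0.979 to 1.55) and B12+Butyrate over B12 1.40 (0.995 to 1.98), and both of these intervals included 1. Conventional dendritic cells (no Siglech UMI, at least 10 H2-Aa UMIs and at least 1 Flt3 UMI) gave ratios over all cells of 0.703 for B12 over Control and 0.534 for B12+Butyrate over Butyrate. T cells gave 0.376 and 0.507, B cells 0.497 and 0.953, and monocytes 0.721 and 0.821. Among the cells of both dendritic gates the plasmacytoid share was 31.8% in B12+Butyrate, 25% in B12, 34.2% in Butyrate and 35.8% in Control. Set against T cells, plasmacytoid cells made up 36.2%, 35.9%, 37.6% and 33.4% of the 2 gates together. Over the cells other than neutrophils, conventional dendritic cells gave 0.880 for B12 over Control (0.729 to 1.06), an interval that includes 1, and 0.670 for B12+Butyrate over Butyrate (0.554 to 0.811), and T cells gave 0.472 (0.377 to 0.590) and 0.637 (0.517 to 0.785). The lower plasmacytoid share thus went with a lower share of T cells in the same libraries on both denominators, and the part played by the neutrophil share or by the Kit mixture was not tested.

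**Figure D1:**
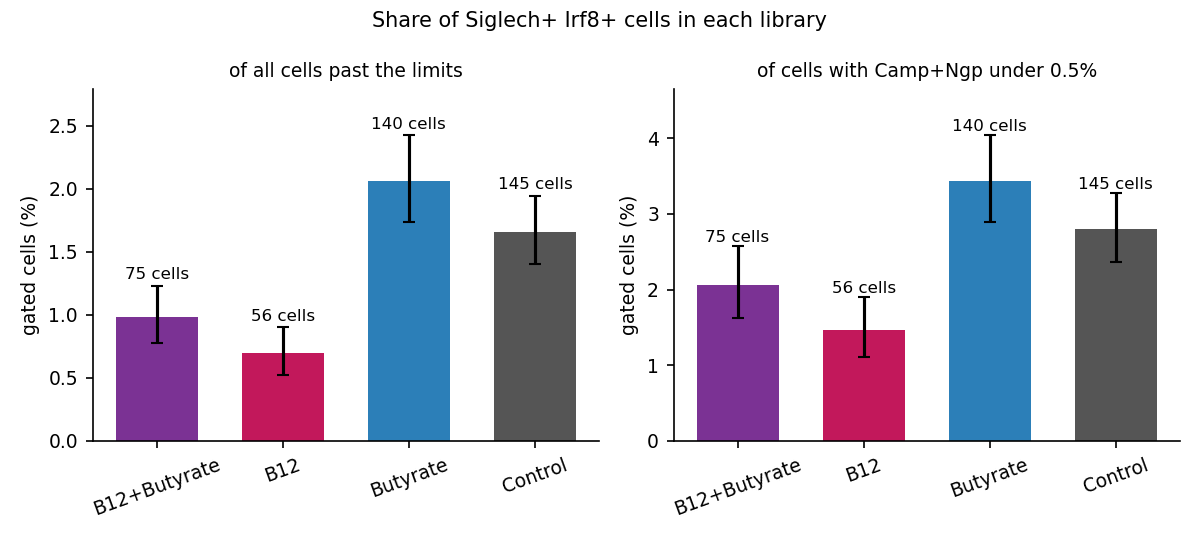
Percent of cells that passed the plasmacytoid rule in each library, of all cells past the quality limits (left) and of cells with Camp and Ngp below 0.5% of UMIs (right); bars start at 0 and error bars are exact 95% Clopper-Pearson intervals for 1 library per group. The B12+Butyrate and B12 bars (0.985% and 0.696% of all cells) lie below the Butyrate and Control bars (2.06% and 1.66%) on both denominators.

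Cells in the gate fell into a cycling and a non-cycling state, and most of the signature genes were higher in the non-cycling state. Cells with at least 2 UMIs of Top2a plus Mki67, which are made in dividing cells, were called cycling: 27 of 75 in B12+Butyrate (36.0%), 26 of 56 in B12 (46.4%), 63 of 140 in Butyrate (45.0%) and 53 of 145 in Control (36.6%), or 169 of 416 in all (40.6%). The interval of each library's share overlaps those of the others. Only 20 of the 416 cells had exactly 1 such UMI, so few lay at the limit. All 20 S-phase genes measured, and all 18 G2/M genes other than Top2a and Mki67, were lower in the non-cycling cells of every library (medians -1.96 and -3.07 on the log2 scale). The mean level of the linker histone H1f5 was 6.56 CPM in non-cycling and 653 CPM in cycling cells, and that of the replication factor Pclaf 23.5 and 1045 CPM. Cycling cells had more UMIs, with median UMI counts of 24486, 20478, 20493 and 18753 in B12+Butyrate, B12, Butyrate and Control, against 11457, 9811, 10379 and 9370 in non-cycling cells.

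The largest ratios of non-cycling over cycling cells included those of Grm8 and Klk1. Grm8 averaged 1063 CPM in non-cycling and 34.8 CPM in cycling cells, with a log2 ratio between 2.40 and 6.4 in the 4 libraries. The secreted protease Klk1 averaged 183 and 3.17 CPM, though its close paralogs make the assignment of its reads uncertain. The calcium channel Cacna1e averaged 729 and 47.2 CPM, and the chemokine receptor Ccr9 383 and 32.7 CPM. The MHC class II chain H2-Aa averaged 753 and 61.2 CPM, and its invariant chain Cd74 1526 and 139.6 CPM. Siglech itself, which chose the cells, was 1919, 1494, 1409 and 1748 CPM in the non-cycling cells of B12+Butyrate, B12, Butyrate and Control and 306, 293, 459 and 350.4 CPM in their cycling cells, so cycling cells lie nearer the gate's limit. Of the 28 measured members of a 30-gene plasmacytoid identity list, 27 were higher in non-cycling cells in all 4 libraries, with a median log2 ratio of 1.52. Among all 9141 genes measured 2169 were higher and 2447 lower in all 4 libraries, with a median of -0.02. Of 12 MHC class II genes 8 were higher in all 4 libraries, of 19 interferon-response genes 13, of 16 nucleic-acid-sensing genes 9, of 14 inhibitory and adaptor receptors 11, and of 20 cytokine receptors 9, with 4 of these lower in all 4. At 2-fold or more, 168 of 4356 genes were higher and 281 lower in the non-cycling cells of every library.

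**Figure D2:**
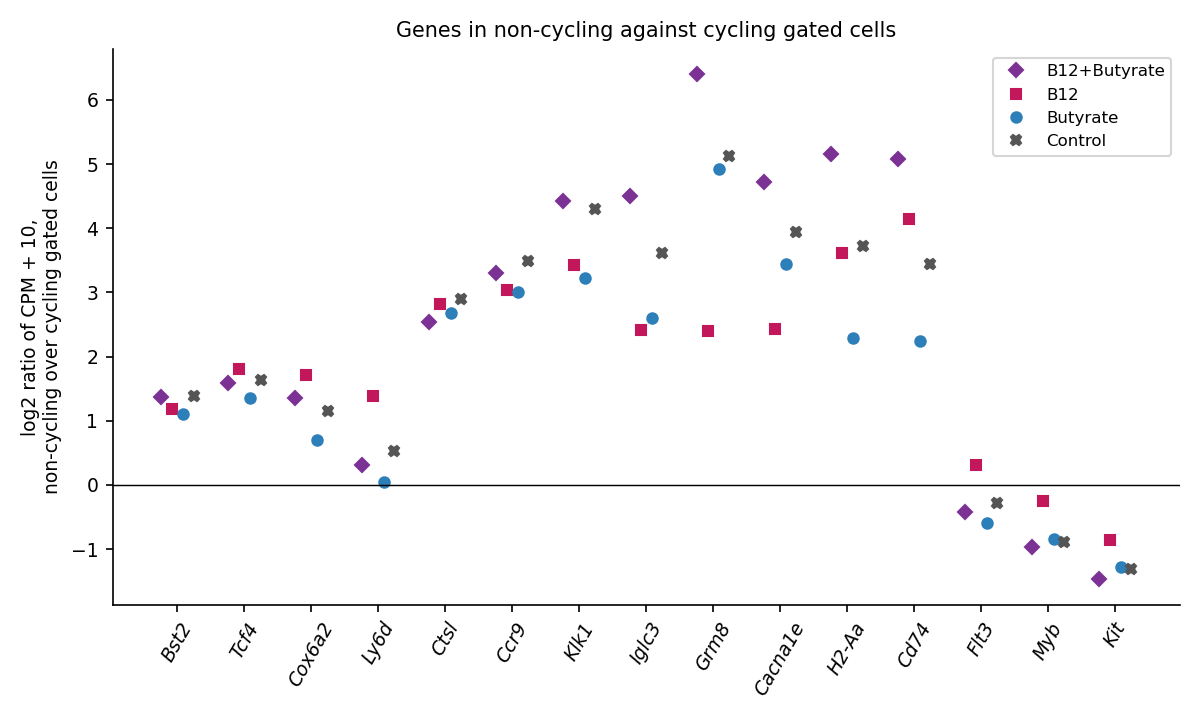
Log2 ratio of CPM + 10 between non-cycling and cycling gated cells for 15 genes; each point is 1 library. Grm8, Cacna1e, Cd74, H2-Aa and Ccr9 lie above 0 in all 4 libraries, and the progenitor genes Myb and Kit lie below 0 in all 4.

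The contrast in detection held when every cell was thinned to 2000 UMIs, with the gate and the cycling call kept from the full counts. The gate's limit of 3 Siglech UMIs was the same for the deeper cycling and the shallower non-cycling cells. Its part in the contrast was not tested. Grm8 was then detected in 157 of 247 non-cycling cells (63.6%) and 8 of 169 cycling cells (4.73%), H2-Aa in 142 (57.5%) and 11 (6.51%), Cd74 in 153 (61.9%) and 17 (10.1%), and Ccr9 in 110 (44.5%) and 13 (7.69%). No thinned T cell of any library had a Grm8 UMI, and 2.02% to 3.04% of them had one of H2-Aa and 0% to 2.46% one of Ccr9. For Cd74 8.08% to 16.8% of thinned T cells had a UMI, a range that holds the share in cycling cells, so that share is not read as expression. Single Control T cells held up to 237 Cd74 and 159 H2-Aa UMIs, so these percentages need not be free RNA alone. Bst2 was found in both states, in 241 (97.6%) and 146 (86.4%) cells. The progenitor genes Kit and Myb ran the other way. Kit, the receptor used in the sort, was at 0, 6.34, 3.55 and 8.87 CPM in the non-cycling cells of B12+Butyrate, B12, Butyrate and Control and at 17.8, 19.5, 23 and 36.9 CPM in their cycling cells. The progenitor factor Myb was at 118, 178, 131 and 126 CPM in non-cycling and 238, 215, 245 and 244 CPM in cycling cells. Il7r, of the lymphoid list, was instead higher in non-cycling cells. In the same order of libraries it was at 210, 238, 203 and 247 CPM there and 90.3, 60.2, 122 and 72.9 CPM in cycling cells. The growth factor receptor Flt3, which sustains dendritic progenitors, was found in 81 non-cycling cells (32.8%) and 79 cycling cells (46.7%), but its CPM was higher in non-cycling than in cycling cells of B12 (257 and 205 CPM) and lower in the other 3 libraries.

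**Figure D3:**
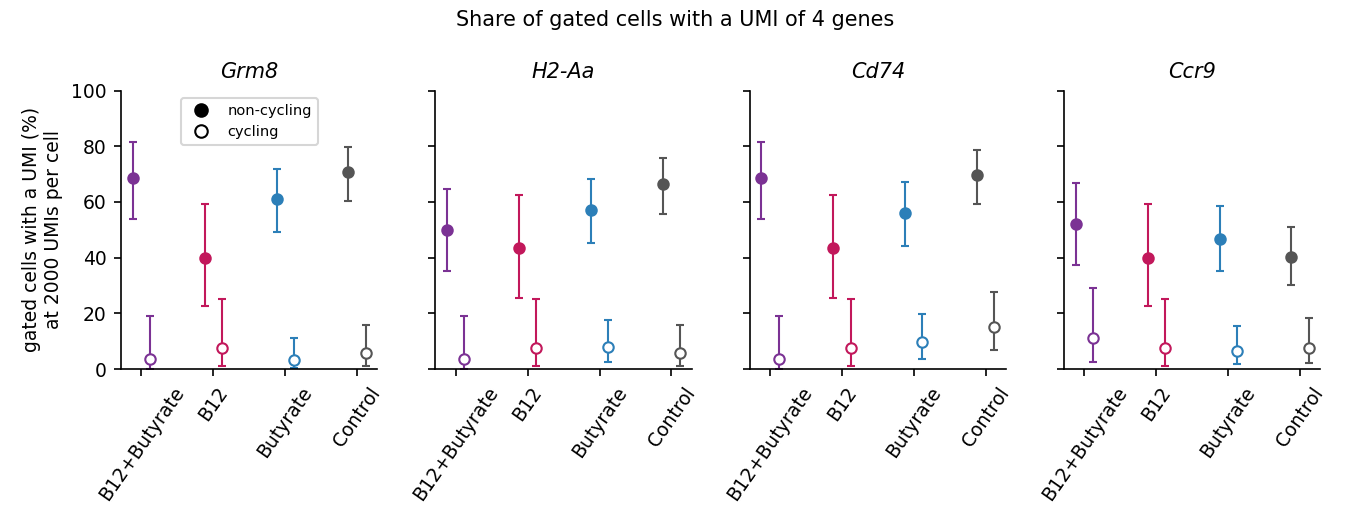
Percent of gated cells with a UMI of Grm8, H2-Aa, Cd74 or Ccr9 after thinning to 2000 UMIs per cell, by library; filled points are non-cycling and open points cycling cells, and error bars are exact 95% Clopper-Pearson intervals. Grm8 was seen in 40.0% of non-cycling B12 cells, below the 61.0% to 70.7% of the other libraries, and in few cycling cells of any library.

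Across all gated cells the signature genes were lowest in the B12 library. Of the 20 leading genes, B12 had the lowest level for 19 and B12+Butyrate the highest for 12, and of 28 identity genes B12 was lowest for 23. Among all 2043 genes at 100 CPM or more on average, B12 was lowest for 35.7% and B12+Butyrate highest for 23%. Tcf4 was measured at 4388 CPM in B12+Butyrate, 3142 in B12, 4213 in Butyrate and 4364 in Control. The B12 interval (3029 to 3258 CPM) lay below the other intervals, which overlapped one another in part. Bst2 had 2058 CPM in B12+Butyrate, 1782 in B12, 1881 in Butyrate and 2059.6 in Control, a narrower range. The levels of Mctp2 were 1330.0 CPM in B12+Butyrate, 705 in B12, 1052 in Butyrate and 1077 in Control, again lowest in B12 and highest in B12+Butyrate. Cox6a2 was at 803 CPM in B12+Butyrate, 585 in B12, 786 in Butyrate and 773 in Control, so that the other libraries differed little. Ccr9 reached 234 CPM in B12+Butyrate, 96.7 in B12, 202 in Butyrate and 175 in Control, and the B12 cells were again the lowest, with 1 cell holding 20% of the UMIs. The B cell linker Blnk, which these cells share with the B lineage, had 322 CPM in B12+Butyrate, 173 in B12, 323 in Butyrate and 314 in Control.

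In the non-cycling cells alone the differences were smaller for several of these genes. Tcf4 was then at 6914 CPM in B12+Butyrate, 5964 in B12, 6752 in Butyrate and 7032 in Control. Cox6a2 was at 1208 CPM in B12+Butyrate, 1088 in B12, 1034 in Butyrate and 1119 in Control, and Ly6d at 2043 CPM in B12+Butyrate, 2208 in B12, 2340.4 in Butyrate and 2091 in Control, with no deficit in B12. Bst2 had 3099.7 CPM in B12+Butyrate, 2839 in B12, 2807 in Butyrate and 3145 in Control. Grm8 kept its order, at 1455 CPM in B12+Butyrate, 463 in B12, 987 in Butyrate and 1348 in Control. In cycling cells Grm8 was low and in another order, at 7.40 CPM in B12+Butyrate, 79.7 in B12, 23 in Butyrate and 29 in Control, highest in B12. Of the other genes, B12 was lowest in cycling cells for Tcf4 (1696 CPM, and 2251 in Control), Cox6a2 (327 and 499) and Ly6d (836 and 1441). For Bst2 B12 was not the lowest in cycling cells (1241 CPM, and 1200 in Control). The identity list had a median log2 ratio of -0.46 for B12 over Control (1 of 27 genes higher and 26 lower), 0.21 for B12+Butyrate over Butyrate (23 of 28 higher), -0.09 for Butyrate over Control (9 of 27 higher) and 0.58 for B12+Butyrate over B12 (27 of 28 higher). The median over all genes measured in each comparison lay within 0.01 of 0. In non-cycling cells the list medians were -0.26, 0.20, -0.08 and 0.41. Without the 25 cells that held RNA of another lineage, described below, they were -0.29, 0.39, -0.18 and 0.50, and with at least 5 Siglech UMIs -0.24, 0.26, -0.09 and 0.44. B12 over Control and B12+Butyrate over Butyrate share no library, nor do Butyrate over Control and B12+Butyrate over B12, whereas every other pair of these comparisons does.

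**Figure D4:**
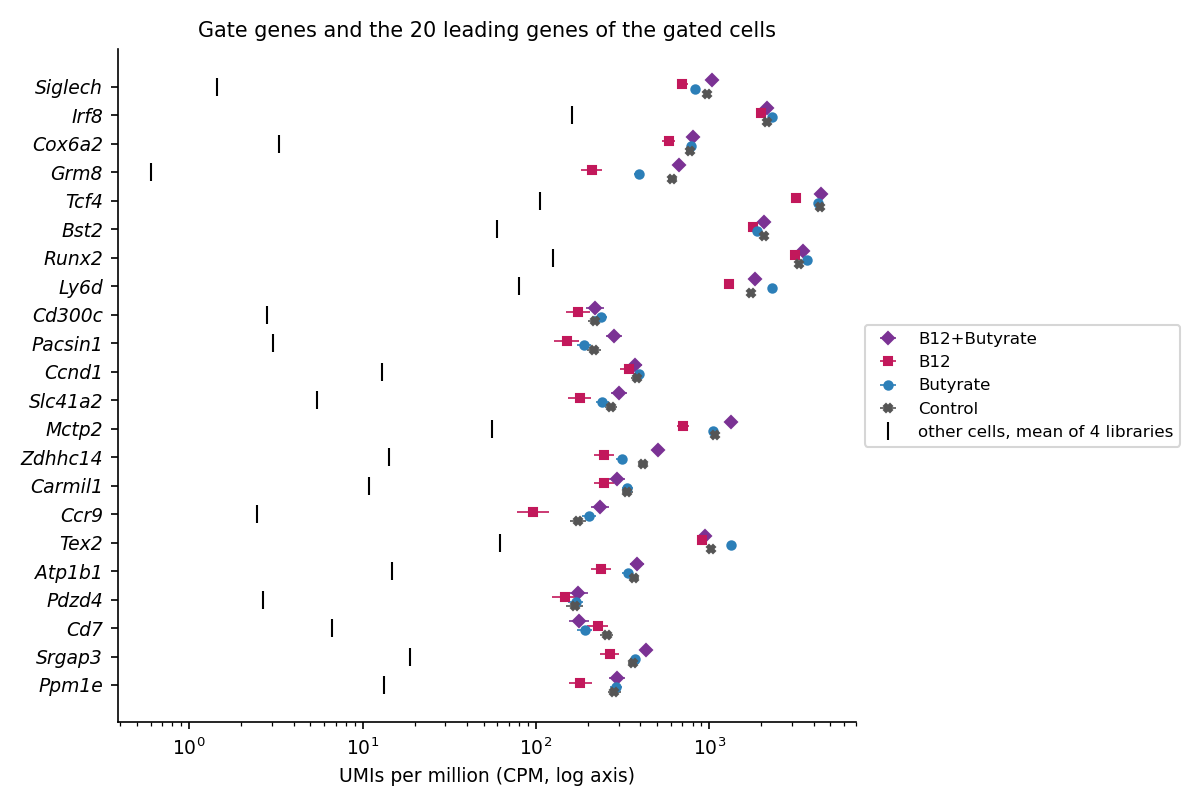
Levels of the gate genes and the 20 leading genes in the gated cells of each library, in CPM on a log axis, with exact 95% Poisson intervals. The B12 points lie lowest for 19 of the 20 leading genes (Grm8 at 210 CPM in B12 and 394 to 665 CPM in the other libraries), and black ticks give the mean of all other cells over the 4 libraries.

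B12 and Control differed by 2-fold or more, on the log2(CPM + 10) scale, at 27 of 4077 genes with at least 50 CPM in either library (0.662%), of which 3 were higher (0.0736%) and 24 lower (0.589%) in B12. No test was possible. In non-cycling cells alone 143 genes passed the same fold, 68 higher and 75 lower, and after thinning to 2000 UMIs 439 did, 213 higher and 226 lower, with lower and higher genes in nearly equal numbers, although both settings leave fewer UMIs. With the stricter gate 9 were higher and 30 lower, without called doublets 6 and 22, and without cells holding RNA of another lineage 2 and 19. The lower genes included Grm8 and Cacna1e. Grm8 was at 209.6 CPM in B12 (181 to 241) and 612 in Control (579 to 647), found in 16 of 56 and 76 of 145 cells, with a log2 ratio of -1.50. In non-cycling cells the ratio was -1.52. Cacna1e had 160.2 CPM in B12 and 475 in Control (-1.51). The adhesion gene Cdh1 had 16.1 and 56.8 CPM (-1.36). Of 10 measured genes of the lymphoid and immunoglobulin list 7 were lower and 3 higher (median -0.22), with 2, Dntt and Iglc3, lower by 2-fold or more. Dntt, which encodes the terminal transferase of antigen-receptor recombination, had 32.2 CPM in B12 and 136 in Control (-1.79), but the non-cycling ratio was -0.56 and 1 Control cell held 26.7% of its UMIs there. The lambda light chain constant gene Iglc3, whose near-identical family members share reads, had 38.7 and 108 CPM (-1.27). A pair of the lower genes rested on few cells: Fgf13, at 9.67 and 59.8 CPM, was found in 4 and 19 cells, and Apoe, at 8.60 and 52.4 CPM, in 7 and 24.

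Immp2l, which encodes a subunit of a mitochondrial inner-membrane peptidase and lies in a very long gene, was at 320.2 CPM in B12+Butyrate, 119 in B12, 372 in Butyrate and 375 in Control. The B12 level was the lowest, and the log2 ratio over Control was -1.58, or -2.77 in non-cycling cells. In all other cells of the same libraries it was 118, 63.2, 141 and 123 CPM, also lowest in B12. Malat1, a nuclear RNA whose level follows the nuclear part of a cell's RNA, was at 11478 CPM in B12+Butyrate, 8614 in B12, 9889 in Butyrate and 11040.3 in Control in the gated cells. The sources used here do not give whether intronic reads were counted, and their part in the differences of Immp2l and of other long genes, such as Cacna1e and Auts2, was not tested.

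At 2-fold or more, 3 genes were higher in B12 than in Control over all gated cells, and 68 in non-cycling cells. The genes named here include some under 2-fold. The heat shock gene Hspa1b had 318 CPM in B12+Butyrate, 505 in B12, 250.3 in Butyrate and 252 in Control, with a log2 ratio of 0.97 for B12 over Control and 1.67 in non-cycling cells, although its twin Hspa1a shares reads with it. Of 21 immediate early and heat shock genes 19 were higher in B12 than in Control (median 0.25). The scaffold gene Cask had 72.8 CPM in B12+Butyrate, 146 in B12, 61.1 in Butyrate and 67.1 in Control, and its ratio of 1.02 was 1.33 in non-cycling cells. The linker histone gene H1f2 had 128 CPM in B12 and 59.3 in Control (0.99), H1f1 106 and 55.9, the replication nuclease gene Dna2 51.6 and 25, and the chromatin remodeller subunit Znhit1 54.8 and 26.5. Of 20 S-phase genes 16 were higher in B12 (median 0.17), beside the cycling share of 46.4% in B12 and 36.6% in Control. F13a1, a coagulation factor gene of monocytes, had 241 CPM in B12 and 90.2 in Control, but 1 cell gave 35.7% of the B12 UMIs and the ratio of 1.32 turned to -0.77 in non-cycling cells. For the neutrophil gene Retnlg 1 B12 cell gave 94.7% of the UMIs. The chemokine gene Ccl4 had 221 and 115 CPM (0.89).

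MHC class II genes were lowest in B12. H2-Aa was at 382 CPM in B12+Butyrate, 195 in B12, 353 in Butyrate and 466 in Control, H2-Ab1 at 254 CPM in B12+Butyrate, 103 in B12, 242 in Butyrate and 269 in Control, and H2-Eb1 at 169.8 CPM in B12+Butyrate, 66.6 in B12, 221 in Butyrate and 235 in Control. Cd74 was at 787 CPM in B12+Butyrate, 383 in B12, 761 in Butyrate and 928 in Control. For each of the 4 genes the B12 interval lay below the other 3, and Control had the highest level. Among all 4077 genes, 591 met 2 conditions together. Their B12 and Control intervals lay apart, in either direction, and they were detected in at least 10% of cells of the higher library. Genes with intervals apart but detected in fewer cells are not in this count. In B12 over Control 10 of 11 measured members of the MHC class II list were lower, 4 of them by 2-fold or more (0.589% of all 4077 genes were), and the median was -0.57. B12+Butyrate over Butyrate gave 9 of 12 higher and a median of 0.06. Butyrate over Control gave 10 of 12 lower and a median of -0.24. B12+Butyrate over B12 gave 9 of 11 higher and a median of 0.35. In the non-cycling cells H2-Aa was at 825 CPM in B12+Butyrate, 511 in B12, 701 in Butyrate and 973 in Control, and the medians were -0.54, 0.20, -0.34 and 0.46. For B12 over Control the median was -1.07 after thinning, -0.96 with a pseudocount of 1 CPM and -0.32 with no minimum. For B12+Butyrate over Butyrate the median turned to -0.03 after thinning, with 5 of the members higher and 6 lower. In the conventional dendritic gate, which H2-Aa helped to choose, its level spanned a narrower range, at 5520 CPM in B12+Butyrate, 5079 in B12, 5485 in Butyrate and 5540 in Control. In all other cells of the libraries H2-Aa was at 361, 230.1, 523 and 376 CPM, also lowest in B12. Ciita, the master activator of class II genes, was low throughout, at 11.3 CPM in B12+Butyrate, 9.67 in B12, 16.4 in Butyrate and 27 in Control. Of 14 MHC class I genes 13 were lower in B12 than in Control (median -0.33), none by 2-fold.

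The nucleic-acid-sensing machinery was detected in all libraries. Tlr7, the endosomal receptor for single-stranded RNA, was at 45.3 CPM in B12+Butyrate, 21.5 in B12, 44.2 in Butyrate and 51 in Control, with the B12 interval (13.1 to 33.2 CPM) below those of the other libraries. Pld4, an endosomal nuclease that limits TLR signalling, followed the same order at 207 CPM in B12+Butyrate, 123 in B12, 189 in Butyrate and 217 in Control. Unc93b1, which carries these receptors to the endosome, was at 529 CPM in B12+Butyrate, 467 in B12, 494 in Butyrate and 529 in Control. Tlr9 was near the detection limit, at 1.62 CPM in B12+Butyrate, 3.22 in B12, 3.19 in Butyrate and 2.94 in Control. The interferon regulator Irf7 was at 32.3 CPM in B12+Butyrate, 24.7 in B12, 36 in Butyrate and 29.9 in Control, with overlapping intervals. The list of sensing genes had medians of -0.19, 0.11, -0.17 and 0.20 for B12 over Control, B12+Butyrate over Butyrate, Butyrate over Control and B12+Butyrate over B12, with no member past 2-fold in any of them.

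Interferon genes themselves were barely detected. Over 416 cells the 19 type I and III interferon genes had 20 UMIs in all, of which 16 were Ifna2, 3 Ifnk and 1 Ifnb1. These UMIs fell in 4 cells of B12+Butyrate, 4 of B12, 1 of Butyrate and 3 of Control, and the other 16 genes had none. A count of 0 allows up to 2.43 CPM in B12+Butyrate, 3.22 in B12, 1.37 in Butyrate and 1.47 in Control. Transcripts of interferon-stimulated genes were also measured. Of 16 measured response genes 13 were lower in B12 than in Control (median -0.22). Ifi27l2a was at 327 CPM in B12+Butyrate, 269 in B12, 448 in Butyrate and 267 in Control, with the Butyrate interval above the others, and its level in all other cells was 192, 177, 315 and 217 CPM, also highest in Butyrate.

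Among transcription factors of the lineage Runx2, Spib and Mef2c, like Tcf4, were lowest in B12 over all gated cells, and Zeb2 was not. Runx2 was at 3489 CPM in B12+Butyrate, 3126 in B12, 3655 in Butyrate and 3286 in Control. Within each state, unlike Tcf4, Runx2 was not lower in B12 than in Control. It was at 2556 and 2535 CPM in their cycling cells and 4238 and 4234 CPM in their non-cycling cells. Spib, an Ets factor of plasmacytoid cells, was at 109 CPM in B12+Butyrate, 65.6 in B12, 99.4 in Butyrate and 89.2 in Control. Mef2c was at 1389.8 CPM in B12+Butyrate, 1094 in B12, 1684 in Butyrate and 1715 in Control, lower in both B12-treated libraries. Zeb2 was at 1309.8 CPM in B12+Butyrate, 1389.9 in B12, 1367 in Butyrate and 1435 in Control. The list of 13 factors measured had a median of -0.10 for B12 over Control, -0.06 for B12+Butyrate over Butyrate, -0.03 for Butyrate over Control and 0.10 for B12+Butyrate over B12. Irf4, a regulator of conventional dendritic cells, was low at 4.85 CPM in B12+Butyrate, 6.45 in B12, 5.93 in Butyrate and 5.88 in Control. Among DNA methylation enzymes Tet2 was at 108 CPM in B12+Butyrate, 109 in B12, 112 in Butyrate and 118 in Control, with overlapping intervals. All libraries carry the same Tet2+/- genotype, so its level does not check the labels. Dnmt3a was at 102 CPM in B12+Butyrate, 62.3 in B12, 91.2 in Butyrate and 106 in Control. Genes of cobalamin and one-carbon metabolism had medians of 0.08, -0.03, 0.13 and -0.06, and butyrate receptors, transporters and deacetylases -0.01, 0.05, 0.01 and -0.07, in the order of comparisons above. The one-carbon enzyme Mthfd2 was at 41.2 CPM in B12+Butyrate, 54.8 in B12, 40.1 in Butyrate and 29.9 in Control.

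**Figure D5:**
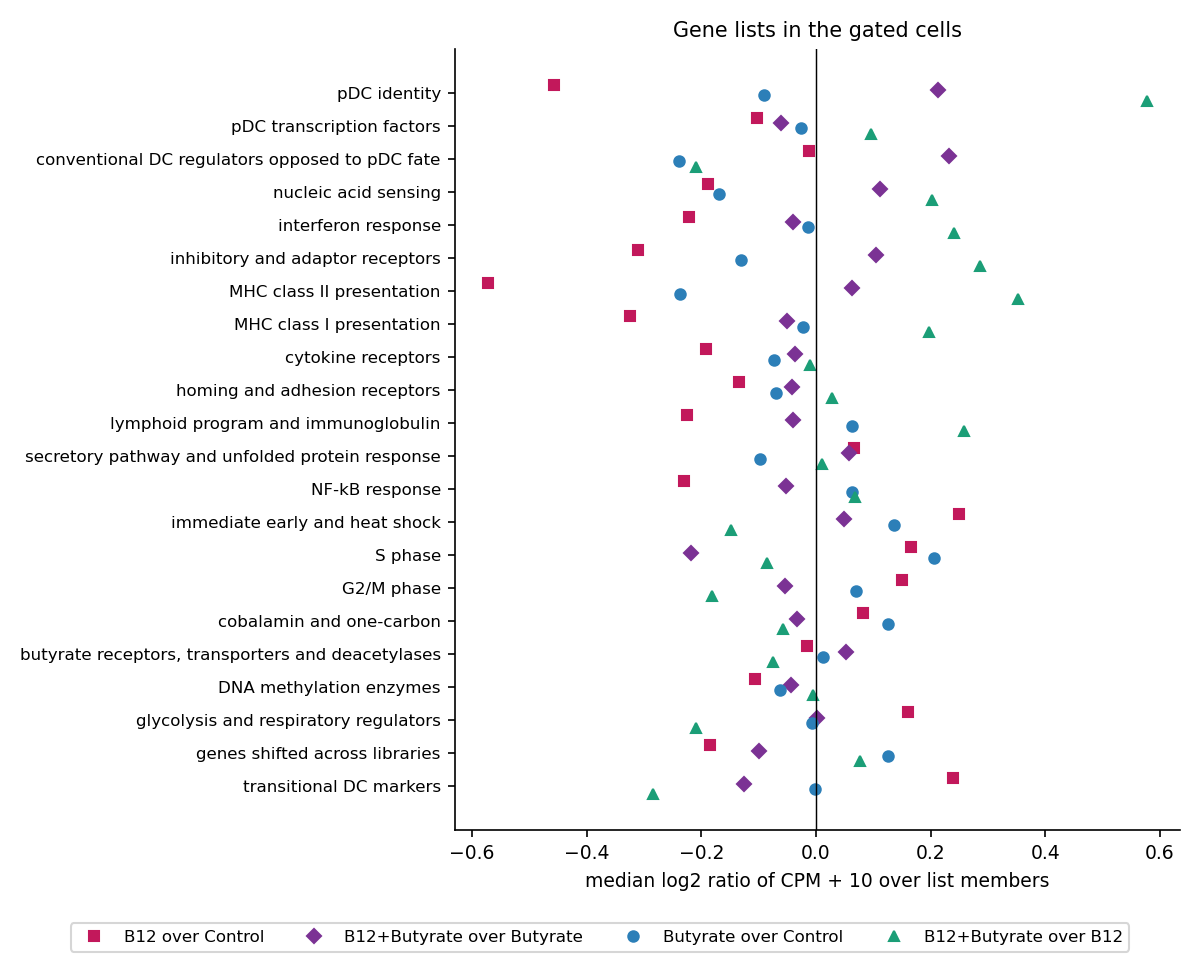
Median log2 ratio of CPM + 10 over the members of each gene list, for the 4 comparisons, in the gated cells; there is 1 library per group and no error bar. The identity and MHC class II lists have the lowest medians for B12 over Control (-0.46 and -0.57) and the highest for B12+Butyrate over B12 (0.58 and 0.35), and most other lists lie between -0.3 and 0.3.

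The largest ratios of B12+Butyrate over Butyrate were those of granulocyte precursor genes. Of 4072 genes 23 passed 2-fold (0.565%), 18 higher (0.442%) and 5 lower (0.123%) in B12+Butyrate. Elane, Mpo and Prtn3, the proteases and peroxidase of primary granules, had 775, 595 and 627 CPM in B12+Butyrate and 4.56, 14.6 and 36.5 CPM in Butyrate. A single cell gave 58.2%, 56.5% and 56.1% of the B12+Butyrate UMIs. The summed level of 10 neutrophil markers not used by the gate was 3105 CPM in B12+Butyrate, 2310 in B12, 333 in Butyrate and 1488 in Control. By limits on granule, alarmin, lysozyme and cytotoxic genes, 8 of 75 cells in B12+Butyrate, 5 of 56 in B12, 3 of 140 in Butyrate and 9 of 145 in Control held RNA of another lineage, and 13 of these 25 were called doublets. Without them 11 genes passed 2-fold, 9 higher and 2 lower, and the Elane, Mpo and Prtn3 ratios were 0.13, -0.39 and -0.64 in place of 5.75, 4.62 and 3.78. Markers of B, T and NK cells were low. The 8 B cell markers summed to between 64.7 and 72.0 CPM, with Ms4a1 and Cr2 at 0 in all libraries, and 10 T cell markers to between 43.0 and 72.8 CPM. NK cell markers summed to 96.2 CPM in B12+Butyrate, 35.5 in B12, 7.29 in Butyrate and 37.7 in Control, with Ncr1 and Gzma at 0. Other lists were higher. Monocyte markers summed to 1353 CPM in B12+Butyrate, 1753 in B12, 1353 in Butyrate and 1363 in Control. In the same order, stem and progenitor markers summed to 614, 731, 862 and 721 CPM. Markers of type 1 conventional dendritic cells summed to 251, 229, 237 and 286 CPM, and of type 2 to 360, 300, 405 and 366 CPM.

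Genes other than granule genes also had higher levels in B12+Butyrate than in Butyrate. Cadm1, an adhesion molecule, was at 51.7 CPM in B12+Butyrate, 18.3 in B12, 16.4 in Butyrate and 44.1 in Control, with a ratio of 1.23 for B12+Butyrate over Butyrate, and 1.52 without cells of another lineage. Iglc3 was at 131 CPM in B12+Butyrate, 38.7 in B12, 54.7 in Butyrate and 108 in Control (1.12), and Plxdc2 had 104 CPM in B12+Butyrate and 36 in Butyrate (1.31). Angpt1, the ligand of the Tie2 receptor, was at 46.1 CPM in B12+Butyrate, 39.8 in B12, 124 in Butyrate and 61.7 in Control, and its ratio of -1.25 was -0.40 in non-cycling cells. The adhesion receptor Pecam1 had 312 CPM in B12+Butyrate and 583 in Butyrate (-0.88), the mitochondrial leucyl-tRNA synthetase Lars2 104 and 235 (-1.10), the calcitonin-receptor-like gene Calcrl 39.6 and 91.2 (-1.03), and the autophagy protease Atg4a 19.4 and 50.1 (-1.03). Pot1b, which encodes a telomere-end protein, had 25.9 and 54.2 CPM. B12 over Control and B12+Butyrate over Butyrate share no library, and of the genes past 2-fold F13a1 was higher in both (33.3% of 3 and 5.56% of 18 genes), Apoe lower in both (4.17% of 24 and 20% of 5) and Iglc3 opposite. The Apoe ratio for B12+Butyrate over Butyrate, -1.24, turned to 0.34 without called doublets, and 1 Butyrate cell held 65% of its UMIs.

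Butyrate over Control had the fewest genes past 2-fold of the 4 comparisons. Butyrate and Control also had the most gated UMIs, at 2193783 and 2040703. The part of UMI number in this ranking was not tested. For Butyrate over Control 14 of 4026 genes passed (0.348%), 1 higher (0.0248%) and 13 lower (0.323%) in Butyrate. The higher gene was Sdk1, an adhesion molecule, at 62.4 CPM in Butyrate and 23 in Control (1.13), although the ratio was 0.29 in non-cycling cells. Next came the potassium channel Kcnq5, at 365 and 184 CPM (0.95), which was -0.02 in non-cycling cells, Angpt1 (0.90), the centriole gene Stil (0.85), Gfod1 (0.81), the phosphatase Ptpn11 (0.81), the replication checkpoint gene Clspn (0.79), Mast2 (0.77), the activation marker Cd69 (0.75) and the phosphodiesterase Pde4b (0.73). Cd69 had 133 CPM in B12+Butyrate, 119 in B12, 201 in Butyrate and 115 in Control, highest in Butyrate. Of 20 S-phase genes 18 were higher in Butyrate than in Control (median 0.21), beside cycling shares of 45.0% and 36.6%. The lower genes included granule genes: Elane had 4.56 CPM in Butyrate and 267 in Control (-4.25), Mpo 14.6 and 411 (-4.10), Ctsg 5.93 and 174 (-3.53), Prtn3 36.5 and 352 (-2.96) and the lysozyme gene Lyz2 299 and 697 (-1.19). Without the cells of another lineage the Elane and Mpo ratios were -0.99 and -0.83, and 6 genes were higher and 4 lower.

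B12+Butyrate differed from B12 at 48 of 4123 genes (1.16%), 40 higher (0.97%) and 8 lower (0.194%) in B12+Butyrate. In non-cycling cells 195 genes passed, 88 higher and 107 lower. The B12 library is the one also set against Control above. Grm8 had 665 CPM in B12+Butyrate and 209.6 in B12 (1.62), Dntt 148 and 32.2 (1.90), Iglc3 131 and 38.7 (1.53), the neuronal calcium sensor Ncald 113 and 34.4 (1.47) and the GTPase Gimap6 59 and 15 (1.46). Arpp21 had 97 and 20.4 CPM (1.81), and the long gene Auts2 239 and 82.8 (1.42), found in 13 and 4 cells. Fgf13 had 76.8 and 9.67 CPM, but 1 cell gave 44.2% of the B12+Butyrate UMIs. The estrogen receptor gene Esr1 had 59.8 and 16.1 CPM (1.42). Lower genes with many positive cells were Nup210l (20.2 and 51.6 CPM), the base-excision enzyme Apex1 (38 and 81.7), Plcl1 (38.8 and 86) and the squalene synthase gene Fdft1 (25.1 and 57), with ratios between -1.03 and -0.93. Chil3, Lcn2, Retnlg, Fn1 and F13a1 were lower too, and between 35.7% and 94.7% of their B12 UMIs came from 1 cell. Butyrate over Control and B12+Butyrate over B12 share no library, and no gene passed 2-fold in both, in the same or the opposite direction.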

How the data were processed

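The authors deposited unnormalised UMI counts of 33696 genes in each barcode. Per the file headers they came from Cell Ranger 7.1.0, and the genome was GRCm39 per the submitters' processing notes. The labels' protocols name the v3.1 kit of 10x Genomics for 3′ ends for all 4 libraries. The counting of intronic reads is not given in these sources. Symbols on 2 rows (26) were summed. The cell rule, the gene lists and the markers were chosen with earlier results of these data known, and the list of genes shifted across libraries was taken from them.

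UMIs of gated cells were summed per library and scaled to the same total in every library (CPM). With 1 library per group no test was run. A gene was past the fold at an absolute log2 ratio of CPM + 10 of 1 or more among genes at 50 CPM or more in either library. List members needed 10 CPM, and gate genes were left out. Named genes were up to 10 each way with the largest ratio, detected in at least 10% of cells of the higher library, with Poisson intervals apart, leaving out mitochondrial, ribosomal, variable immunoglobulin and unnamed genes. Intervals cover counting error only, not the spread between mice. The Poisson intervals rest on UMIs summed over cells and also leave out the spread between cells. Doublets were scored against simulated ones (2 times the cells, 50 neighbours) and called at 0.8% per 1000 cells. Thinning drew 2000 UMIs per cell without replacement. The gene counts and intervals were tested on simulated data with known changes. The alternatives of non-cycling cells only, of leaving out cells with RNA of another lineage (at least 20 UMIs of Elane, Mpo, Prtn3 and Ctsg, 50 of S100a8 and S100a9, 50 of Lyz2, or 10 of Ccl5 and Nkg7) and of no Camp and Ngp limit were chosen after seeing the data. Computation used Python 3.11.15 with pandas 2.3.3, numpy 2.4.6, scikit-learn 1.9.0, scipy 1.17.1 and, for plots, matplotlib 3.10.9.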

Additional observations from a re-analysis of the deposited data

Results flagged for a closer look

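Several genes and lists had opposite directions in the 2 comparisons of B12-treated mice with mice not given B12, which share no library. The differences between the comparisons were not tested, since each rests on 1 library per group. Dntt had a log2 ratio of -1.79 for B12 over Control and 0.63 for B12+Butyrate over Butyrate. Cacna1e had -1.51 and 0.64, Grm8 -1.50 and 0.74, and Cadm1 -0.94 and 1.23 in the same comparisons. The plasmacytoid identity list had a median of -0.46 and 0.21.

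The 2 comparisons of butyrate-treated mice with mice not given butyrate, which also share no library, differed in direction for further genes, again without a test. Mpo had a ratio of -4.10 for Butyrate over Control and 0.77 for B12+Butyrate over B12, and Prtn3 -2.96 and 0.61. Single cells held 56.5% of the Mpo UMIs in B12+Butyrate, 96.9% in B12 and 45.8% in Control. Dntt had -0.51 and 1.90, Grm8 -0.62 and 1.62, Iglc3 -0.86 and 1.53, and Ncald -0.69 and 1.47. The MHC class II list had medians of -0.24 and 0.35. No library could be set against others of its group, as each group holds 1.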

How the results depend on the processing

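No paired analysis was possible because each group is 1 library, and for the same reason no replicate could be left out. The 36 alternative values of the share ratios (looser and stricter gates, gates per 10000 UMIs, a 20% mitochondrial limit, doublets removed, no Camp and Ngp limit, neutrophils left out of the denominator, non-cycling cells and no cells of another lineage) kept the direction of the main values and moved by less than counting error. For B12+Butyrate over B12 the lower bound of the ratio was 1.003 in the main setting and 0.995 without neutrophils. This bound also lay below 1 in other settings, among them doublets removed and no cells of another lineage. The number of genes past 2-fold depended on depth and minimum. For B12 over Control the count of 27 became 439 after thinning, 143 in non-cycling cells, 43 with a pseudocount of 1 CPM and 75 with no minimum. For B12+Butyrate over Butyrate the count of 23 became 12 without called doublets, 322 after thinning, 11 without cells of another lineage, 66 in non-cycling cells and 75 with no minimum. For Butyrate over Control the count of 14 became 125 after thinning and 38 with no minimum. For B12+Butyrate over B12 the count of 48 became 588 after thinning, 195 in non-cycling cells, 74 with a pseudocount of 1 CPM and 124 with no minimum. Thinning and subsets leave fewer UMIs per library.

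Of 704 alternative values of list medians 173 moved beyond counting error, and 79 had the opposite sign to the main value, 75 of them where the main median was under 0.2 from 0. The 4 others included conventional DC regulators for Butyrate over Control (0.12 in non-cycling cells) and transitional DC markers for B12 over Control (-0.19 with the stricter gate). For B12 over Control, Retnlg turned to -1.07 with the stricter gate and -0.15 without cells of another lineage, F13a1 to -1.11 with the stricter gate and -0.77 in non-cycling cells, and S100a8 to -0.55 without cells of another lineage and -0.38 in non-cycling cells. For B12+Butyrate over Butyrate, Mpo turned to -0.39 and Prtn3 to -0.64 without cells of another lineage, and Apoe to 0.34 without called doublets and 0.30 without cells of another lineage. For Butyrate over Control, Kcnq5 turned to -0.024 and Lyz2 to 0.14 in non-cycling cells. For B12+Butyrate over B12, Esr1 turned to -0.077 and Apex1 to 0.24 after thinning, Chil3 to 0.11 without called doublets, F13a1 to 0.32 and Fn1 to 0.31 with the stricter gate, and Retnlg to 1.29 with the stricter gate, 0.19 without cells of another lineage and 1.48 in non-cycling cells. The cause of these changes was not tested. Of 1071 alternative values for named genes, 20 turned direction where the main counting intervals of the libraries lay apart. A further 149 lost the gap between these intervals, and 31 gained it. The other 871 kept the gap with its direction, or had overlapping intervals both before and after. Direction was not followed where the intervals overlapped in both.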

Other observations

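Several gene groups outside the comparisons above are given as values only. The gated cells carried transcripts of the immunoglobulin heavy chain constant gene Ighm. It was at 519 CPM in B12+Butyrate, 504 in B12, 623 in Butyrate and 502 in Control, with overlapping intervals except for Butyrate. After thinning, Ighm was found in 69.7% of gated cells, 23.9% of T cells and 9.90% of neutrophils in Control. The part of free RNA in its level was not tested. Of the 8 B cell markers not used by the gate, only Ms4a1 and Cr2 were at 0 in all libraries. The 8 together summed to between 64.7 and 72.0 CPM. The bone marrow retention receptor Cxcr4 was at 77.6 CPM in B12+Butyrate, 104 in B12, 80.2 in Butyrate and 63.7 in Control, and the egress receptor Ccr2 at 85.7 CPM in B12+Butyrate, 158 in B12, 114 in Butyrate and 156 in Control. The dendritic growth factor receptor Flt3 was at 219.9 CPM in B12+Butyrate, 223 in B12, 301 in Butyrate and 253 in Control.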
